A study of Caenorhabditis elegans with 8 samples.

Results

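cel-miR-1823, here miR-1823, is 1 of 156 C. elegans miRNAs named on the array, and is described across 8 arrays of whole Caenorhabditis elegans. It was chosen by its measured values, because its levels on the flight arrays lay below the ground control in the wild type and above it in a dystrophin mutant. That pattern and every level below are therefore descriptions, with no test. The probe carries the number 49552 in the deposited files and no arm suffix, and its name was not checked against a probe sequence.

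A miRNA is a short RNA that guides an Argonaute protein to messenger RNAs, mainly through its seed near the 5′ end, and lowers their translation or stability. Worm miRNAs are known for timing larval development and for roles in stress, lifespan, muscle and neurons. No role of miR-1823 is assumed here. In the RefSeq gene table (assembly WBcel235) its gene, mir-1823, overlaps 0 other genes and lies between the protein-coding genes T07D10.1 and ntr-1, which encodes a receptor of the vasopressin and oxytocin type. The nearest miRNA genes are mir-794 and mir-795, and miR-795 is a relative of the larval timing miRNA let-7.

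There was 1 array for each of 2 strains in each of 4 conditions. N2 is wild-type, whereas LS292 has the allele dys-1(cx18) in the gene for dystrophin, the protein that links the cytoskeleton to the membrane in muscle; the labels give 1 mutant strain and no rescue. Dauer larvae, the arrested and stress-resistant stage, were loaded for a mission of 16.5 days at 23 °C. In static flight the worms met microgravity with a radiation dose of 1.92 mGy, and in 1g flight a centrifuge replaced weight at a dose of 2.27 mGy. The ground control was held in a static slot of the same hardware for 16.5 days, started after launch, and like the flight worms was collected after 7 h. The no-transport control stayed in an incubator, and the labels give it no dose, duration or temperature. The labels state that no sample was repeated. The design text speaks of technical repeats, which were taken here to be the 4 spots of a probe on an array. Spots measure technical spread within an array, not the spread between worm cultures, and 8 arrays limit the precision of everything below.

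The arrays had 2 features that touch miR-1823. Of the named probes, between 11 and 19 per array reached an intensity of 50 above local background, the minimum used here for a measured level, and 5 reached it on all 8 arrays: miR-1823, let-7, miR-84, miR-55 and miR-257. Some miRNAs were looked up as markers of whole worms. Of these, miR-1 (muscle), lin-4 (larval timing), and miR-58 and miR-71, which are abundant in many tissues, reached 50 on 0 arrays. Their highest median was 26.5, for miR-58. The neuronal miR-124 reached 50 on 6. Local background was over 3 times the array median at 25.1% of spots on the N2 static flight array and at 4.47% to 12.6% on the others. In whole worms, fewer cells that hold a miRNA and less of it per cell cannot be told apart.

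MiR-1823 was among the 10 brightest named probes on every array. By the median of the 4 spots it ranked 2 of 156 on the LS292 1g flight array, 4 on N2 ground, 5 on both static flight arrays and on N2 1g flight, 7 on LS292 ground and LS292 no transport, and 10 on N2 no transport. Among the 163 probes that reached 50 on all 8 arrays, of which 158 have no name, its rank ran from 58 on LS292 1g flight to 155 on LS292 ground.

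In N2 the highest spots were on the ground array. The N2 ground spots measured 196, 273, -262 and 515, with a median of 234.5 and an SD of 325. The spots of N2 static flight were 111, 125, -484 and 136 (median 118, SD 304). For N2 1g flight they were 69, 186, 195 and 175 (median 180.5, SD 58.7). Among spots with low local background, each ground spot lay above each flight spot, though by 1 unit at the closest point (196 against 195). The N2 no-transport spots were 54, 113, 94 and 81 (median 87.5, SD 24.8), all below the ground spots other than the negative one. So the N2 ground array held the highest miR-1823 median of its strain and also the largest spot SD in intensity units, with the negative spot counted. For spots above 0 on the log2 scale, the SD was 0.708 on N2 ground and 0.715 on N2 1g flight.

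In LS292 the 1g flight array stood apart. Its spots measured 328, 621, 603 and 643, with a median of 612 and an SD of 148. The LS292 ground spots were 71, 89, 125 and -187 (median 80, SD 143), and no ground spot overlapped the 1g flight spots. LS292 static flight gave 136, 210, 222 and 119 (median 173, SD 51.8), above ground by median but overlapping it, since 119 lies below 125. That ground spot of 125 had high local background, and the ground spots of low background, 71 and 89, lay below each static flight spot. LS292 no transport gave 31, 79, 114 and 127 (median 96.5, SD 42.9), which overlapped the ground spots.

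**Figure D1:**
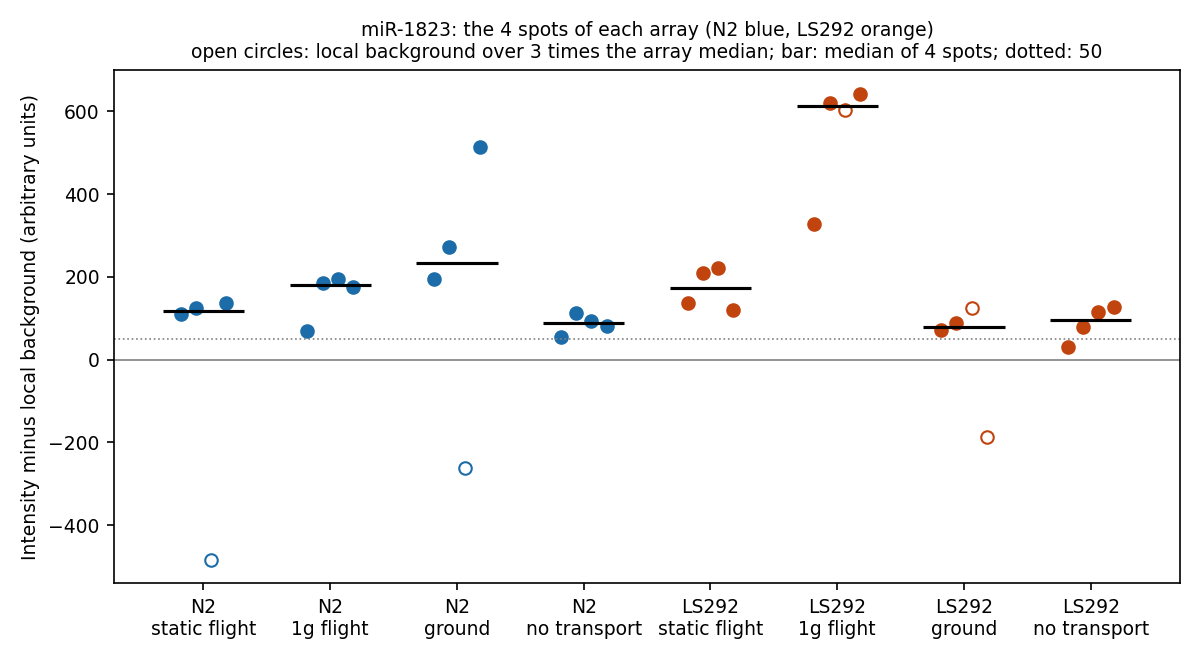
The 4 spots of the miR-1823 probe on each array, as intensity minus local background in arbitrary units, with the median as a bar and spots of high local background as open circles. The LS292 1g flight spots (328 to 643) lie above all LS292 ground spots, and the negative spots at -484, -262 and -187 are all open circles.

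The spots of the probe sit at the same column and row of blocks 6, 18, 30 and 42, so arrays can also be compared place by place. Static flight was below ground at 4 of 4 places in N2 and above it at 4 of 4 in LS292. For 1g flight the N2 value was lower than ground at 3 of 4 places, the exception being the place where the ground spot was -262, and the LS292 value was higher at 4 of 4. Of the 32 spots, 5 had high local background: block 30 on N2 static flight, N2 ground, LS292 1g flight and LS292 ground, and block 42 on LS292 ground. There the 8 spots around miR-1823 had a median of -143 or less, down to -792, against -41 to 24.5 around the other 27. With those places left out, the count was 3 of 3 lower for both N2 comparisons and 2 of 2 higher for both LS292 comparisons. The places of an array share its RNA and hybridisation and are not replicates.

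The bright, unnamed probe 24199 lies directly beside miR-1823 in every block. In LS292 it was also higher on the flight arrays, with unscaled log2 ratios against ground of 1.63 for static flight and 2.08 for 1g flight, beside 1.11 and 2.94 for miR-1823. In N2 its ratios were 0.13 and 0.15, beside -0.99 and -0.38. The part of a shared place on the array in these values was not tested.

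To set arrays beside each other, the authors divided each value by 1 constant per array, which equals the median of the 5 named probes at 50 or more on all arrays. MiR-1823 is one of those 5, and on the N2 ground array the constant, 234.5, is its own value. Its normalized level there is 1 by construction. The constants ran from 128 on N2 no transport to 294 on LS292 1g flight. The normalized level was 2.08 on LS292 1g flight, 1 on N2 ground, 0.859 on LS292 static flight, 0.726 on N2 1g flight, 0.684 on N2 no transport, 0.576 on N2 static flight, 0.551 on LS292 no transport and 0.405 on LS292 ground. The step from the first to the next level was log2 1.06, larger than the combined SD of the log2 spots above 0 (0.85). Each of the other 6 steps between neighbours in that order, log2 0.062 to 0.45, was smaller than that spread, which ran from 0.48 to 1.01.

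In static flight against ground, which joins radiation and microgravity, miR-1823 was 1.74-fold lower in N2 (log2 -0.80) and 2.12-fold higher in LS292 (log2 1.08) by the normalized values. The spread of the spots for these ratios was 0.72 and 0.61 on the log2 scale, and both ratios were larger than it. That spread leaves out the spots of -484 (N2 static flight), -262 (N2 ground) and -187 (LS292 ground), which count in the medians. Scaled to the unnamed probes the N2 ratio was -0.18, smaller than 0.72. The LS292 ratio was 0.37 without high-background spots, smaller than 0.61. There the miR-1823 medians stayed at 173 in static flight and 80 on the ground. The static flight constant moved from 201.5 to 330, and the ground constant stayed at 197.5. By normexp with quantile normalization over named probes the LS292 ratio was 0.28, also below 0.61, a spread not taken on that scale. A difference between cultures cannot be told from one between arrays. In N2, 0 of 8 named probes at 50 or more on both arrays were 2-fold apart (0%). In LS292, 3 of 11 were (27.3%), miR-1823 with miR-124 (log2 1.24) and miR-787 (log2 1.16). Without scaling the N2 ratio was log2 -0.99, close to the median of the other 162 bright probes (-0.80), of which 71 lay further down. The LS292 ratio was 1.11 against a median of 0.16, and 12 of the 162 lay above it. The N2 value was therefore near the middle of the bright probes, and the LS292 value in their upper part. The LS292 direction turned when local background was subtracted neither from miR-1823 nor from the array constant (log2 -0.29). The foreground medians themselves were 258 in static flight and 253 on the ground. The ground foregrounds were 120, 147, 359 and 406, and those of 359 and 406 lay on local backgrounds of 234 and 593. The ground foregrounds of low background, 120 and 147, lay below each static flight foreground (186 to 272).

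In 1g flight against ground, flight without weightlessness, the N2 level was 1.38-fold lower (log2 -0.46, spot spread 1.01) and the LS292 level 5.14-fold higher (log2 2.36, spot spread 0.62). The N2 difference was smaller than the spread of its spots, and the LS292 difference was larger. In N2, 3 of 12 named probes were 2-fold apart (25%), and miR-1823 was not among them. In LS292, 3 of 8 were (37.5%): miR-1823, miR-84 (log2 -1.88) and miR-257 (log2 -1.61), of which miR-1823 was the one that was higher in flight. Unscaled, the LS292 ratio of log2 2.94 exceeded that of each of the other 162 bright probes, whose highest was 2.78 and median -0.18. The unscaled N2 ratio of -0.38 lay above the bright-probe median of -0.65, with 94 of the 162 further down. Scaled to the 158 unnamed bright probes, the N2 difference turned to log2 0.14, and quantile normalization over all probes also turned it (0.13). The LS292 ratio kept its direction, but its size ran from log2 0.58 to 3.91 over the alternatives. The lowest, by normexp with quantile normalization over named probes, was smaller than the spot spread of 0.62, and the highest came from means of spots. Without background subtraction it was 1.05.

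**Figure D2:**
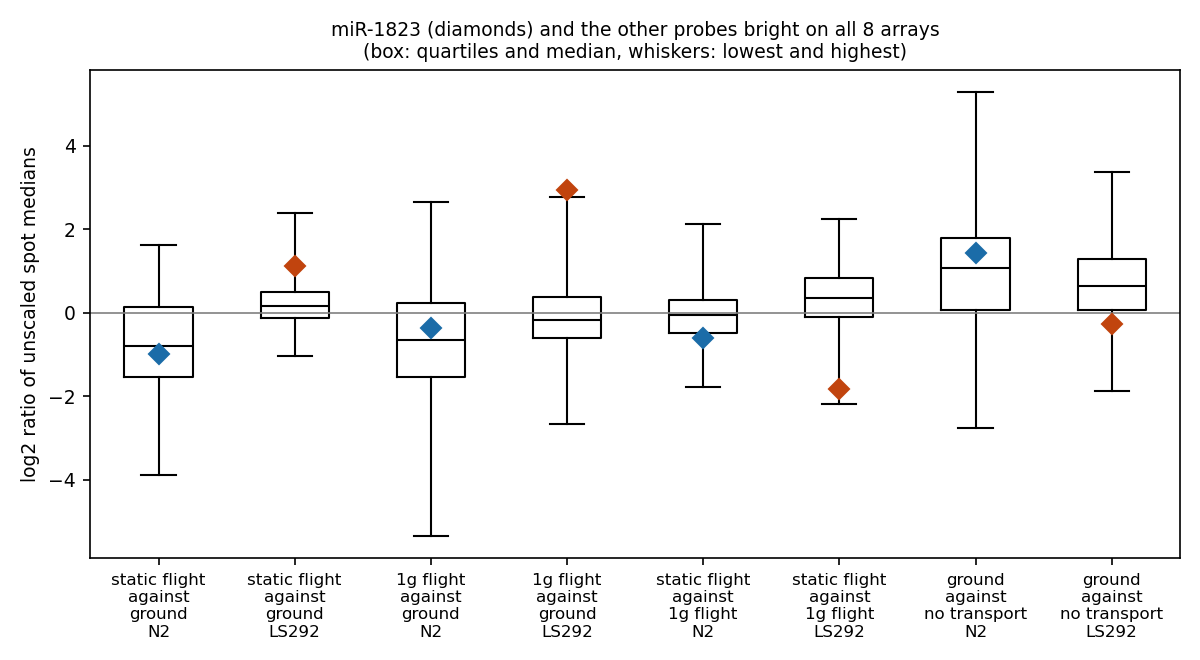
The log2 ratio of unscaled spot medians in the 8 comparisons within a strain, for miR-1823 (diamonds) and for the other 162 probes at 50 or more on all arrays (boxes with quartiles, whiskers to the lowest and highest). The LS292 diamond of 1g flight against ground (2.94) lies above the whisker, while the N2 diamonds for flight against ground (-0.99 and -0.38) lie within the boxes.

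The pattern of an N2 level below ground and an LS292 level above ground on both flight arrays was met by 12 of the 163 bright probes by normalized values (7.36%), miR-1823 included, and by 31 without scaling. The reverse pattern was met by 7 under both. Scaled to the unnamed probes, 12 met the pattern, without miR-1823, and 17 the reverse. The rule chose miR-1823 for this pattern, so nothing is read from these counts. LS292 minus N2, the flight-against-ground log2 ratios differed by 1.88 for static flight (spot spread 0.95) and 2.82 for 1g flight (spot spread 1.18). The rule chose miR-1823 for this direction, so nothing is read from the sign. Among the alternatives that gave a value, the lowest differences were 0.64 and 0.78, both below those spreads. Both came from normexp with quantile normalization, and the spreads were not taken on that scale. With 1 array in each cell of the design, this difference between strains cannot be tested.

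Within the flight, static against 1g, miR-1823 was lower in static flight in both strains. The normalized levels were 0.576 and 0.726 in N2, a ratio of log2 -0.34 (spot spread 0.73), and 0.859 and 2.08 in LS292, a ratio of log2 -1.28 (spot spread 0.65). Of named probes 2 of 9 were 2-fold apart in N2 (22.2%) and 5 of 9 in LS292 (55.6%). In LS292 miR-84 (1.88), miR-237 (1.48), miR-56 (1.41) and miR-257 (1.14) were higher in static flight on the log2 scale, and miR-1823 was the 1 that was lower. Of the other 162 bright probes, 1 lay below its unscaled LS292 ratio of -1.82 and 32 below its N2 ratio of -0.61. Static and 1g flight also differed in radiation dose, which cannot be told apart from gravity here.

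Ground against no transport compares the hardware, site and timing. By the normalized values, miR-1823 was 1.46-fold higher on the ground in N2 (log2 0.55, spot spread 0.84). In LS292 it was 1.36-fold lower (log2 -0.45, spot spread 1.01). Both differences were below the spread of the spots on that scale. Here 5 of 10 named probes were 2-fold apart in N2 (50%) and 2 of 11 in LS292 (18.2%), with miR-1823 in neither group. Unscaled, the N2 ratio was log2 1.42, larger than its spot spread, beside a bright-probe median of 1.08. The LS292 ratio was -0.27 beside 0.63, and the place-by-place count went the other way, with ground higher at 3 of 4. Scaled to the unnamed probes, the N2 ratio was 0.50, below its spread, and the LS292 ratio -1.04, larger than its spread. The LS292 direction turned without background subtraction (log2 0.52), where the ground spots of high local background count in the foreground median.

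The flight comparisons of a strain share its ground array, so their signs are not independent. On no transport in place of ground, the N2 static level was 0.576 against 0.684 and its 1g level 0.726 against 0.684. The LS292 levels were 0.859 and 2.08 against 0.551. On this scale N2 lay below the control in static flight and above it in 1g flight, and LS292 above it in both. Both static flight directions turned under another scaling: N2 lay above the control unscaled (118 against 87.5) and scaled to the unnamed probes (0.429 against 0.346), and LS292 below it when scaled to the unnamed probes (0.355 against 0.419).

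LS292 against N2 was also compared within each condition. In 1g flight miR-1823 was 2.87-fold higher in LS292 (log2 1.52, spot spread 0.85), and LS292 was higher at 4 of 4 places. Of named probes, 4 of 12 were 2-fold apart there (33.3%), of which miR-73 had the largest ratio (log2 3.12). On the ground it was 2.47-fold lower in LS292 (log2 -1.30, spot spread 0.82), 1 of 3 named probes of 11 that were 2-fold apart (27.3%), and lower at 3 of 4 places. In static flight LS292 was 1.49-fold higher (log2 0.58, spot spread 0.47), where 2 of 9 named probes were 2-fold apart (22.2%) and miR-1823 was not. Unscaled, that ratio (0.55) was near the bright-probe median (0.57), and scaling to the unnamed probes turned it to -0.27. Without transport the strains differed by log2 -0.31 (spot spread 1.03), against 4 of 12 named probes 2-fold apart (33.3%), with LS292 higher at 2 of 4 places. That direction turned under 6 of the alternatives and with 1 spot left out.

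**Figure D3:**
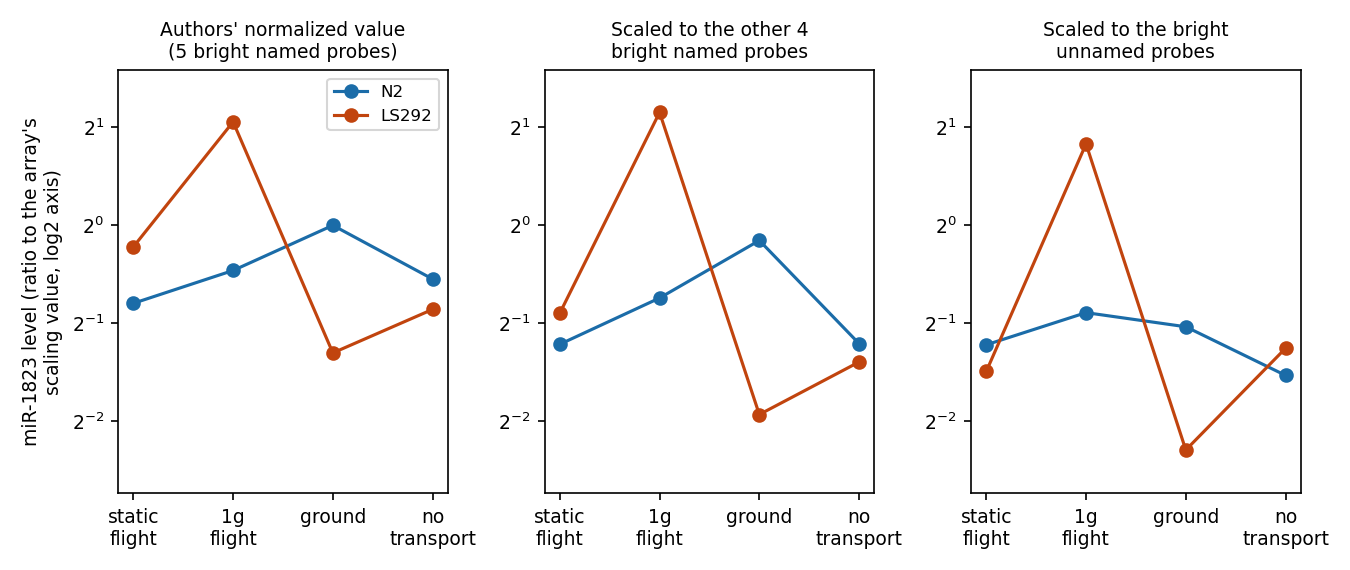
The miR-1823 level in the 4 conditions for N2 (blue) and LS292 (orange) on a log2 axis, as normalized by the authors, scaled to the other 4 bright named probes, or scaled to the 158 bright unnamed probes; 1 array per point. LS292 1g flight is the highest and LS292 ground the lowest point in each panel, while the N2 ground point (1 in the left panel, 0.488 in the right) exceeds N2 1g flight in all but the right panel.

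Scaled to the unnamed probes, N2 levels were 0.429 in static flight, 0.539 in 1g flight, 0.488 on the ground and 0.346 without transport. LS292 levels were 0.355, 1.78, 0.204 and 0.419 in the same order. LS292 1g flight was again highest, log2 1.72 above the next level, beyond a spot spread of 0.85, and LS292 ground was again lowest, log2 0.76 below its neighbour, beyond a spread of 0.61. Of the 6 pairs of conditions, 1 in N2 (static flight and ground) differed by more than the spot spread on the authors' scale and 0 did when scaled to the unnamed probes. In LS292, 4 and 5 of the 6 pairs did, among them 1g flight against each other condition under both. The spread leaves out the spots below 0 on N2 static flight, N2 ground and LS292 ground. Pairs were not counted in this way for the other bright probes, and miR-1823 was chosen by its levels, so nothing is read from these counts. Of the 163 bright probes, 5 had their highest normalized value on the LS292 1g flight array; 4 arrays held 4 to 6 such probes and the other 4 held 21 to 43.

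Of the 20 named miRNAs at 50 or more on at least 2 arrays, the 3 most like miR-1823 over the 8 arrays were miR-73, miR-258 and miR-81, by Pearson correlation of log2 scaled medians with values below 50 raised to 50. These correlations are descriptions over arrays that share their scaling constants, and miR-1823 is part of those constants. MiR-73, of the miR-72 family, had r = 0.76 but a Spearman rho of -0.071. Its median was 554.5 on LS292 1g flight and at most 54 elsewhere, and its 4 spots on that array spread from 90 to 1804. Without the LS292 1g flight array its r was -0.25, so the likeness rests on that array. MiR-258 had r = 0.42 and rho = 0.71, and without that array r was 0.72. Like miR-1823, miR-258 was highest in N2 on the ground (360.5) and highest in LS292 in 1g flight (155.5). It was -15.5 on N2 static flight, and in LS292 it was 107 in static flight, 72 on the ground and 89 without transport. MiR-81, a relative of miR-58, had r = 0.19 and 0.0040 without the 2 arrays farthest from the miR-1823 median, LS292 1g flight and LS292 ground.

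**Figure D4:**
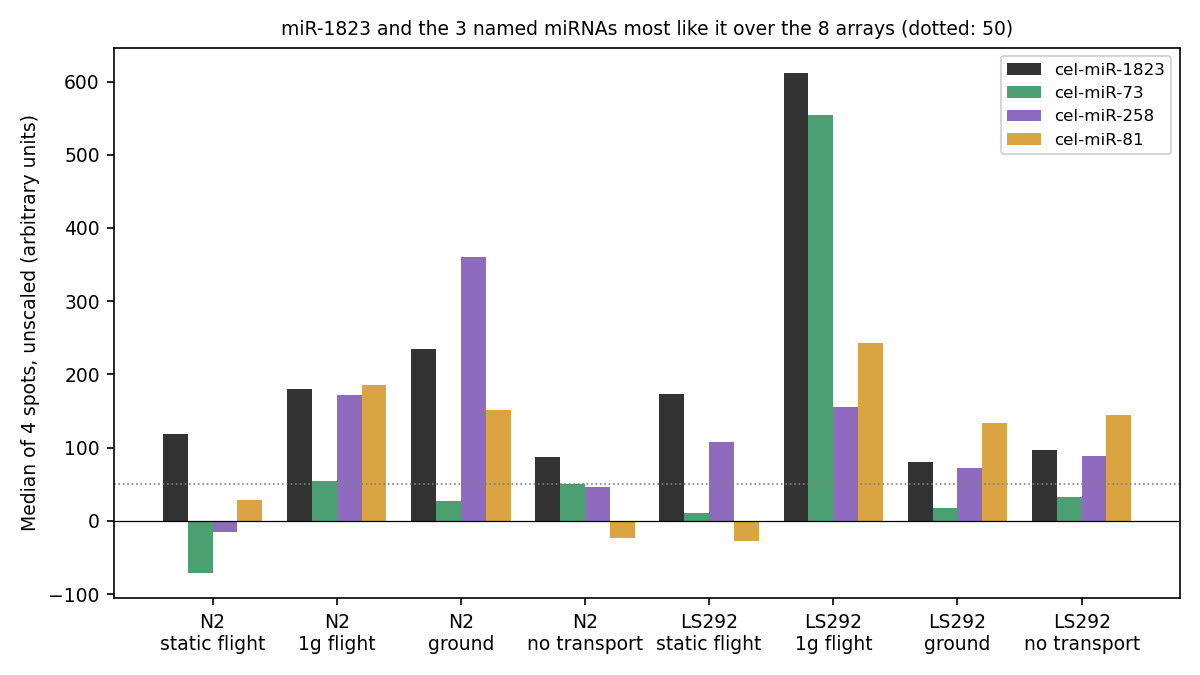
Unscaled spot medians of miR-1823, miR-73, miR-258 and miR-81 on the 8 arrays, in arbitrary units, with the minimum of 50 dotted. MiR-73 (554.5) stands beside miR-1823 (612) on LS292 1g flight and stays at or below 54 on the other arrays, while miR-258 is highest on N2 ground (360.5).

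The order depends on the scaling: with unscaled medians miR-73 (r = 0.83) was followed by miR-255 (0.81; named after its values were seen), miR-258 (0.66), let-7 (0.63) and miR-81 (0.53). Let-7, with r = 0.18 on the scaled values, was next to miR-81, and its median was also highest on LS292 1g flight (655, against 413.5 on LS292 ground). MiR-257 went the other way in LS292 (294 in 1g flight, 603 on the ground; r = -0.60). MiR-84, of the let-7 family, was 80 and 197.5 on those arrays (r = -0.36), and miR-55, of the miR-51 family, 256 and 176 (r = -0.22). The miRNAs encoded nearest to mir-1823 gave little signal: miR-794 had a highest median of 10, and miR-795 reached 50 on 2 arrays, N2 static flight (85.5) and N2 no transport (57). Neither reached it on an LS292 array.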

How the data were processed

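Total RNA of each worm sample, 1 ug per array, was labelled with Hy3 for 1-colour miRCURY arrays, per the labels. Which scanner and image program were used is not given in the sources used here. The spot table holds, per the file headers, foreground intensity before and after subtraction of local background at 10080 spots. The authors' deposited normalized ratio is the median of the 4 spots divided by 1 constant per array, which held for 100% of values within 1e-06. The series matrix holds that ratio too.

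Ratios between arrays were computed here from those normalized values. Levels and ratios have no test, with 1 array per group. The spread of a ratio is the SD of the log2 spots above 0, combined over its arrays. Probes at 50 or more on both arrays gave the share 2-fold apart. The probe and the lists were chosen with earlier results of these data known. Named miRNAs were the 3 most correlated, the other named probes bright on all arrays, whole-worm markers and the nearest miRNA genes, the last added later. A miRNA with the same seed was not looked for. Normexp (offset 50) and quantile normalization, an alternative, used limma 3.58.1 in R 4.3.3. Quantile normalization over all probes and the recount of the pattern were chosen after seeing the data. The ratio step was tested on simulated data.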

Additional observations from a re-analysis of the deposited data

Results flagged for a closer look

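MiR-1823 differed in opposite directions in the strains in 3 comparisons, and none of these differences was tested, since each rests on 4 arrays. For static flight against ground the log2 ratios were -0.80 in N2 and 1.08 in LS292 (spot spreads 0.72 and 0.61). For 1g flight against ground they were -0.46 and 2.36 (spreads 1.01 and 0.62). By these flight comparisons miR-1823 was chosen. For ground against no transport they were 0.55 and -0.45 (spreads 0.84 and 1.01), both smaller than their spread on the authors' scale. Unscaled they were 1.42 and -0.27, and scaled to the unnamed probes 0.50 and -1.04. The N2 ratio thus exceeded its spread unscaled, and the LS292 ratio did when scaled to the unnamed probes. Under another processing, LS292 static flight against ground turned to -0.29, N2 1g flight against ground to 0.14 and LS292 ground against no transport to 0.52. All 3 pairs contain both ground arrays.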

How the results depend on the processing

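Depth is not a term here; the dim signals, at most 643 above background, and 1 array per group limit every value. Ratios are log2. The mean of spots gave no value for N2 static flight, where it is -28.0. Means of spots moved LS292 static flight, 1g flight and ground against their references to 2.78, 3.91 and -2.02, the strain ratio on the ground to -2.63 and the strain difference for 1g flight to 4.20. Without background subtraction, of the constants too, LS292 static flight against ground was -0.29, 1g flight 1.05, and ground against no transport 0.52; the strain ratios were -0.27 on the ground and 0.038 without transport. Normexp with quantile normalization over named probes gave, in LS292, 0.28 for static flight and 0.58 for 1g flight against ground and -0.29 for static against 1g flight. Its strain ratios were 0.36 in 1g flight, -0.42 on the ground and 0.023 without transport, and its strain differences 0.86 and 0.78. Over all probes these were 0.29 and 1.21 in LS292 against ground, 0.13 for N2 1g flight, -0.25 and 0.094 for the strain ratios on the ground and without transport, and 0.64 and 1.08 for the strain differences. Scaling to the other 4 named probes gave 3.09 for LS292 1g flight against ground and -2.05 for static against 1g flight. Scaling to unnamed probes gave 3.13 and -2.32 for these, 0.14 for N2 1g flight, and strain ratios of -0.27 in static flight and 0.28 without transport. With no scaling, N2 ground against no transport was 1.42 and the strain ratio without transport 0.14. Leaving out high-background spots gave -1.78 for N2 and 0.37 for LS292 static flight against ground, and -1.15 and -2.01 for static against 1g flight. It gave 1.46 for N2 ground against no transport, and 0.60 for the strain ratio without transport. This also changed the constants: 428 against 205 on N2 static flight, 330 against 201.5 on LS292 static flight, and 240.5 against 128 on N2 no transport. The miR-1823 medians of LS292 static flight, LS292 ground and both no-transport arrays stayed the same. The 0.37 and the 0.60 therefore changed through the constants alone. The causes of the other shifts were not tested.

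With each spot left out in turn, the ratios ranged from -0.93 to -0.63 (N2) and 0.91 to 1.21 (LS292) for static flight against ground, and from -0.73 to -0.16 and 2.19 to 2.55 for 1g flight. The strain ratio without transport ranged from -0.70 to 0.042, the 1 direction that turned. The series matrix gave the same values as the normalized ones. LS292 and N2 share the 4 conditions, but no test paired by condition was run, since miR-1823 was chosen by its levels on these arrays.

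With probes at 50 or more on either array, the share 2-fold apart was 50% for N2 static flight and 47.8% for N2 1g flight against ground, 33.3% for LS292 ground against no transport, and 55% and 41.2% for the strains in 1g flight and on the ground. Over named and unnamed probes it was 37.6% and 14.1% for static flight against ground in N2 and LS292, 45.1% for N2 1g flight, 10.4% for N2 static against 1g flight and 28.7% for LS292 ground against no transport. Spearman's rho for miR-73 was -0.071.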
